A study of Homo sapiens with 20 samples.

Results

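The genes described here are 48 human genes of DNA replication and of the G1/S transition, the point at which a cell commits to copying its genome. They were chosen by gene symbol. For each symbol the coding gene record that carries it was taken and, had there been several, the record with the highest mean level would have been kept. Each of the 48 symbols had exactly 1 record, out of 20237 coding records and 38369 records in all. The only merged record was that of RFC2, which also carries the symbol WBSCR27.

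Polyadenylated RNA was sequenced from H1-derived neural progenitor cells (NPCs). H1 is an established human embryonic stem cell line, so all groups share 1 genetic background, and no allele, knockout or drug distinguished them. At day 0 the cells had been kept in proliferation medium with FGF, a mitogen of neural progenitors. At days 1, 2, 4, 5, 11 and 18 they had been in medium without FGF and with BDNF, a neurotrophic factor, and the cells of days 5, 11 and 18 had in addition been replated at day 4 on poly-D-lysine and laminin. There were 3 cultures a day, but 2 at day 5.

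The deposited values are FPKM, a level of RNA per length of transcript that is also scaled to the mapped fragments of a library. The authors pooled the cultures of a day into 1 value per record. No spread between cultures is held in them and no difference below was tested. The depth behind each value, and with it the counting error, is unknown. Changes are given in log2(FPKM + 0.1), later minus earlier day, which understates those of low genes, and a gene is counted as lower or higher by 2-fold at a change of at least 1 on that scale. The median change of the 11793 coding records whose FPKM averaged at least 1 (expressed coding records) was itself below 0 and reached -0.60 from day 0 to day 18, so changes relative to that median are given beside the deposited ones. Where 7 FPKM values are listed without their days, they are in the order of the 7 days. In bulk RNA, fewer cycling cells and less of these RNAs per cell cannot be told apart. Of 8 neural progenitor markers, NES, SOX2 and VIM had 513, 126 and 2948 FPKM at day 0, MSI1 and PROM1 47.8 and 38.8, and HES1, SOX9 and PAX6 15.4, 7.25 and 4.31. The last 2 were higher later, at 24.5 and 14.3 at day 11. Of the pluripotency genes, POU5F1 had 0.0886 FPKM at day 0 and LIN28A 32.1. The 10 neuronal markers summed to 742 FPKM at day 0, from 0.149 for ELAVL4 to 382 for TUBB3. That record also carries the symbols MC1R and TUBB2C. STMN2 had 32.3 at day 0.

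To copy its DNA a cell first loads the MCM helicase onto origins, a step called licensing, and then activates it at the onset of S phase. Polymerases, a sliding clamp and its loader, single-strand binding proteins, enzymes that make deoxynucleotides and factors that rebuild chromatin act at the fork. Many of the genes are transcribed once per cycle under the E2F factors, which are held in check by the retinoblastoma family in resting cells and freed by cyclin-dependent kinases. Their RNAs are therefore widely used as marks of cycling cells, and they are low in neurons, which have left the cell cycle.

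Short sequences that E2F factors are known to bind were looked up first in the promoters of these genes. The 48 genes were chosen by name and not by these sequences. Since many are known to be under E2F factors, a high share is no independent result. RefSeq promoter sequences (GRCh38.p14, from 250 bases before to 50 bases after the start of the transcript) were at hand for 41 of the 48 genes, as 52 promoters. They were searched on both strands for 4 E2F words, TTTCGCGC, TTTGGCGC, TTTCCCGC and TTTGCCGC. A word was found for 25 of the 41 genes (61.0%), in 26 of the 52 promoters (50.0%). Among all 35116 promoters of the table, 1164 (3.31%) held one, and among the 9719 expressed coding genes with an entry the share of genes was 6.64%. The nearest match lay within 50 bases of the start in 18 of the 25 genes and within 100 bases in 23. The following windows of 30 bases, read 5′ to 3′ along the gene's strand, show the match nearest the start in MCM2, MCM3, MCM6 and MCM7, subunits of 1 helicase, in E2F1, which codes for an E2F factor itself, and, for each role group with a match to show, in the gene of highest mean FPKM among its genes with a match. Capitals mark all bases matched by an E2F word.

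MCM2 (chr3:127598404-127598433, plus strand): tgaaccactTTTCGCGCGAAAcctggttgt
MCM3 (chr6:52284728-52284757, minus strand): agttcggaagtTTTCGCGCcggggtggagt
MCM6 (chr2:135876513-135876542, minus strand): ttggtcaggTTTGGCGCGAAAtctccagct
MCM7 (chr7:100101388-100101417, minus strand): ggggggcgacgTTTCGCGCcaatttcggtt
PCNA (chr20:5126663-5126692, minus strand): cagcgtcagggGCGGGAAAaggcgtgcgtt
GINS2 (chr16:85688967-85688996, minus strand): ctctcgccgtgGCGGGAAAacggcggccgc
POLE (chr12:132687342-132687371, minus strand): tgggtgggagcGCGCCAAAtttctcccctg
TYMS (chr18:657603-657632, plus strand): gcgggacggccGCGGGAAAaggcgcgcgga
LIG1 (chr19:48170440-48170469, minus strand): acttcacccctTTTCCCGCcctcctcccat
UHRF1 (chr19:4909476-4909505, plus strand): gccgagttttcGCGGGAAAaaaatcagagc
E2F1 (chr20:33686394-33686423, minus strand): ctttcGCGGCAAAaaggaTTTGGCGCgtaa
DTL (chr1:212035729-212035758, plus strand): cgtgacgtcagTTTGGCGCggagtttggcg

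In MCM2 and MCM6 a word on one strand runs into a word on the other, so that the capitals form a palindrome or nearly one. MCM6 held such a pair at 2 places. In E2F1 the capitals mark 2 separate words, 1 on each strand. No word was found in the promoters of MCM10, RFC1, RFC2, RFC4, RFC5, POLD1, PRIM1, RRM1, RRM2, TK1, FEN1, RPA1, CHAF1A, CHAF1B, CCNE1 and SLBP, which says only that these letters are not in that window. Genes without an entry in the table were MCM4, MCM5, GINS4, POLD3, RPA2, RPA3 and CCNE2.

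**Figure D1:**
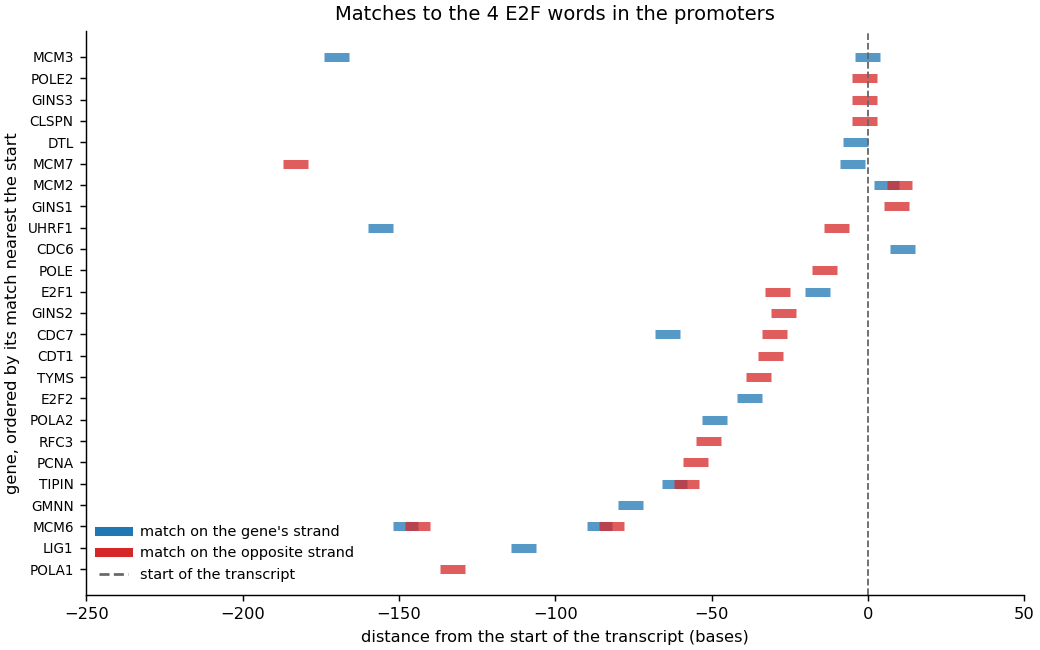
Matches to the 4 E2F words in the promoters of 25 genes, by distance from the start of the transcript in bases (x axis); each row is a gene, blue bars are matches on the gene's strand and red bars on the opposite strand. There are 35 matches, 16 on the gene's strand and 19 on the opposite one, and in 18 of the 25 genes the nearest lies within 50 bases of the start.

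CCAAT, the word of the factor NF-Y, was in a promoter of 24 of the 41 genes (58.5%) against 39.7% of all genes in the table and 43.7% of expressed coding genes. TTTGAA, known as the CHR element of genes that peak in G2 and mitosis, was in 1 of the 41 (2.44%) against 18.2% and 13.9%. The NRF1 motif was also in 1 of the 41, against 1.52% and 2.87%. In a list of 24 mitosis genes, of which 19 had an entry, TTTGAA was in 13 (68.4%), an E2F word in 1 (5.26%), CCAAT in 16 (84.2%) and the NRF1 motif in none. Among 42 other replication genes, of which 35 had an entry, an E2F word was in 10 (28.6%), CCAAT in 21 (60.0%) and TTTGAA in 4 (11.4%). From day 0 to day 18, the median log2 change was -2.38 over the 25 genes with a match, -2.23 over the 16 without one and -2.23 over the 7 without an entry, as deposited.

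All 48 genes were at their lowest level at day 18. At day 0 the median FPKM of the 48 was 32.1 (range 6.30 to 198), and at day 18 it was 5.82 (range 1.13 to 49.5). Together they made up 0.508% of all FPKM at day 0 and 0.177% at day 18, a share that does not depend on how days are scaled against each other. Taking each gene relative to its own day 0 level, the median stood at 60.7% on day 1, 53.6% on day 2, 67.9% on day 4, 43.7% on day 5, 42.4% on day 11 and 20.0% on day 18. The course thus had a low at day 2, a partial return at day 4, a lower plateau at days 5 and 11, and the lowest point at day 18. The highest value was that of day 0 in 46 genes, with CDT1 highest at day 2 and PRIM1 at day 4 as the exceptions.

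Day 18 was at least 2-fold below day 0 in 48 of 48 genes, against 29.9% of expressed coding records. The median change was -2.31, with a range of -3.28 to -1.26. Relative to the median of expressed coding records, 44 of 48 were still lower by 2-fold (12.1% of expressed coding records), and the median change was -1.71. Those that were not were PRIM1, RPA1, RPA2 and SLBP, at -0.94, -0.94, -0.84 and -0.66. Relative to 11 housekeeping genes, which were themselves lower at day 18 by a median of 1.18 on the log2 scale, 29 of 48 were lower by 2-fold (5.53% of expressed coding records). ACTB, also on that list of 12, was left out, since its record, shared with ACTG1, is listed at 0 on all 7 days. The list of housekeeping genes gives a stricter scale than the median record, and no gene of the 48 was higher at day 18 on either.

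Genes differed in when they first lay at least 2-fold below day 0. At day 1 this held for 6 of 48 genes (3.09% of expressed coding records), CDC6, FEN1, GINS4, RFC3, RRM1 and RRM2. Relative to the median record it held at day 1 for 2 of 48 (2.09%). At day 2 it held for 15 (4.04%), at day 4 for 5 (5.49%), at day 5 for 33 (6.93%) and at day 11 for 34 (15.3%). These 4 counts were, relative to the median record, 13 (3.49%), 3 (4.66%), 28 (5.11%) and 22 (8.3%). As deposited, another 9 genes reached it first at day 2, 18 at day 5, 2 at day 11 and 13 only at day 18. Among the last were MCM2, PCNA, CDT1, LIG1, SLBP and the 3 RPA genes. The limit parts genes of nearly equal change. At day 5 MCM2 and LIG1 stood at -0.96 and -0.99, and MCM6, counted at day 5, at -1.01.

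**Figure D2:**
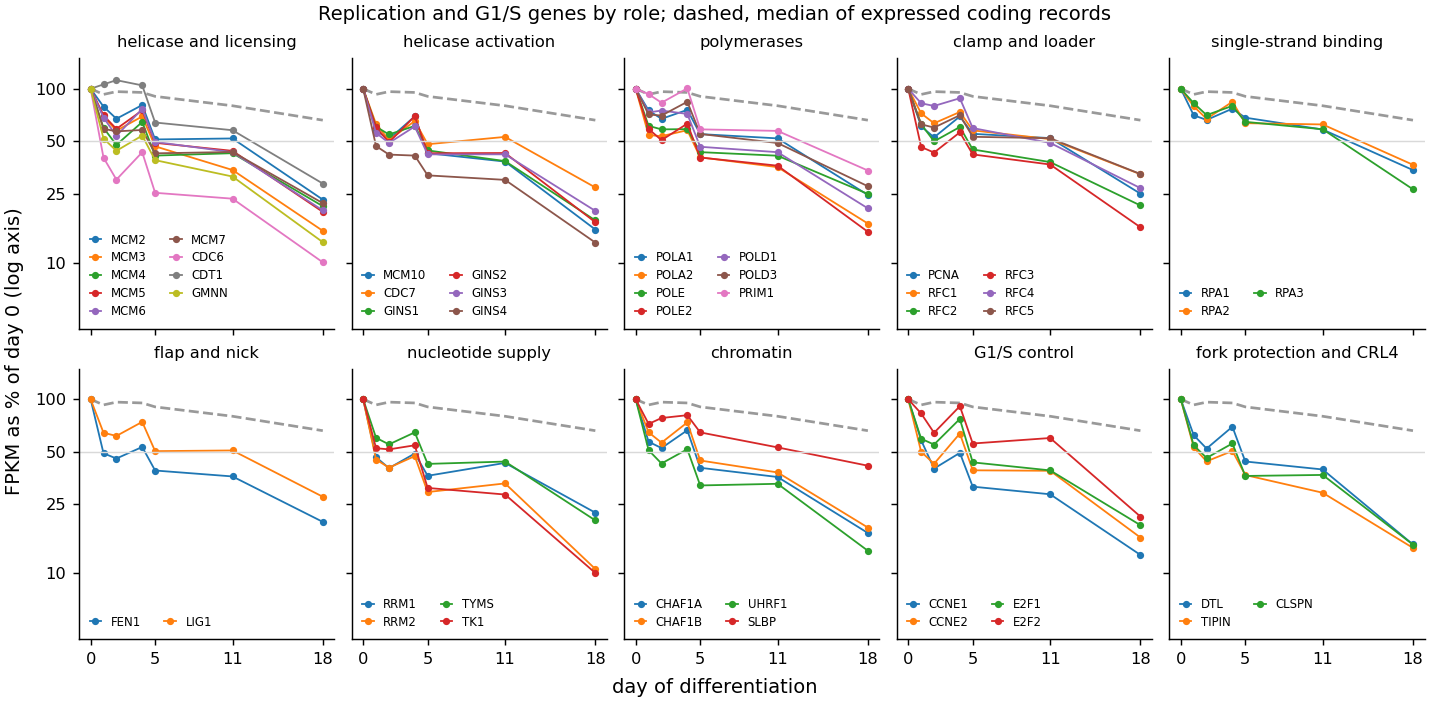
FPKM of the 48 genes as a percentage of day 0 (y axis, log scale) by day of differentiation (x axis), 1 panel per role group and 1 line per gene; the dashed line is the median of expressed coding records, which stands at 66.0% at day 18. Most lines dip to day 2, come up at day 4, drop at day 5 and are lowest at day 18, and the line of CDT1 stays above 100% until day 4.

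In the helicase and licensing group all 9 genes were at least 2-fold lower at day 18 (29.9% of expressed coding records), also relative to the median record (12.1%). The median changes were -2.31 and -1.71. MCM2 to MCM7 are the 6 subunits of the ring that unwinds DNA. MCM7 (chr7:99690404-99699427, minus strand, on hg19 as are the gene positions given below) had the highest level of the group, with 192 FPKM on day 0, 113 on day 1, 109 on day 2, 111 on day 4, 81.6 on day 5, 83.1 on day 11 and 42.3 on day 18. Its level was thus nearly flat from day 1 to day 4, and its change from day 0 to day 18 was -2.18. MCM7 was the highest and MCM6 the lowest of the 6 on every day, at a ratio of 3.13 at day 4 to 4.55 at day 18. The other 5, MCM2 to MCM6, lay within 1.57-fold (day 4) to 1.94-fold (day 18) of each other, and their order changed from day to day among MCM2, MCM3 and MCM4. From day 0 to day 18 the 6 subunits changed by between -2.11 (MCM2) and -2.70 (MCM3). Between days 5 and 11 the subunits parted. MCM3 went from 36.8 to 26.9 FPKM and MCM5 and MCM6 changed by -0.15 and -0.19 on the log2 scale, while MCM2, MCM4 and MCM7 changed by 0.02, 0.05 and 0.03.

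CDC6 and CDT1 load the ring onto origins, and geminin, the product of GMNN, binds CDT1 and blocks reloading. CDC6 (chr17:38444146-38459413, plus strand) had 30.7 FPKM on day 0, 12.3 on day 1, 9.25 on day 2, 13.3 on day 4, 7.77 on day 5, 7.19 on day 11 and 3.10 on day 18. It was the gene with the largest decrease of the 48 at day 1, a log2 change of -1.31, and at day 18 it was at 10.1% of day 0. CDT1 (chr16:88870186-88875665, plus strand) was nearly level at first, with 18.5 FPKM on day 0, 19.6 on day 1, 20.8 on day 2 and 19.4 on day 4, and then 11.9 on day 5, 10.7 on day 11 and 5.29 on day 18. It was the only gene of the 48 that was higher at day 1 than at day 0 as deposited, by 0.08, and relative to the median of expressed coding records PRIM1 was as well. Relative to the housekeeping list 16 of the 48 were higher at day 1. GMNN had 61.1 FPKM on day 0, 26.9 on day 2, 32.9 on day 4 and 8.04 on day 18, a change of -2.91.

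The pair CDT1 and GMNN therefore drew together. The ratio of their FPKM within a day, which is free of the scaling of days, was 0.303 on day 0, 0.621 on day 1 and 0.772 on day 2. It was 0.499 at day 5 and 0.658 at day 18, so that geminin RNA was in excess on all 7 days but by less after day 0. The ratio of CDC6 to CDT1 turned over, from 1.66 on day 0 to 0.629 on day 1 and 0.585 on day 18. Exons of GMNN lie almost wholly (99.7%) under a noncoding record on the opposite strand, whose reads cannot be separated where strands are not counted apart, and that record had at most 1.03 FPKM on the same days.

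The helicase activation group holds MCM10, the kinase CDC7, which phosphorylates the MCM ring, and the 4 GINS subunits, which join it in the active helicase. All 6 were at least 2-fold lower at day 18 (29.9% of expressed coding records), also relative to the median record (12.1%). The medians were -2.51 and -1.91. GINS2 (chr16:85711281-85722588, minus strand) had 68.4 FPKM on day 0, 41.1 on day 1, 33.7 on day 2, 47.6 on day 4, 29.2 on day 5, 29.3 on day 11 and 11.7 on day 18. The return at day 4 is plain in this gene, at 0.50 above day 2 on the log2 scale. GINS4 (chr8:41386725-41402563, plus strand) lacked that return, with 23.3, 10.9, 9.76, 9.63, 7.42, 6.99 and 3.05 from day 0 to day 18, and its change of -2.89 was the lowest of the group. As for GMNN, 89.8% of its exon bases lie under an opposite-strand record, which had at most 0.807 FPKM. CDC7 (chr1:91966404-91991320, plus strand) changed least, by -1.86, with 14.9, 9.32, 7.55, 9.71, 7.15, 7.87 and 4.03 FPKM. The order GINS2, GINS1, GINS4 and GINS3 was the same on all 7 days, with 4.03-fold to 5.36-fold between the first and the last, although the 4 proteins act in 1 complex.

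Polymerase alpha with primase (POLA1, POLA2, PRIM1) lays the first primer, polymerase epsilon (POLE, POLE2) extends the leading strand and polymerase delta (POLD1, POLD3) the lagging strand. All 7 genes were at least 2-fold lower at day 18 (29.9% of expressed coding records), with a median of -1.99. Relative to the median record 6 of the 7 were (12.1%), with a median of -1.39. POLE (chr12:133200348-133263945, minus strand), the catalytic subunit and the highest of the group by its mean, had 34.6 FPKM on day 0, 21.2 on day 1, 20.3 on day 2, 20.3 on day 4, 15.0 on day 5, 14.3 on day 11 and 8.63 on day 18. Its partner POLE2 (chr14:50110278-50154935, minus strand) was lower by the most, with 10.5, 6.15, 5.30, 6.60, 4.22, 3.79 and 1.58 from day 0 to day 18 and a change of -2.65. PRIM1 (chr12:57125370-57146146, minus strand) was lower by the least. It had 16.1 FPKM on day 0, 15.0 on day 1, 13.4 on day 2, 16.2 on day 4, 9.44 on day 5, 9.24 on day 11 and 5.48 on day 18, a change of -1.54, and its level before replating at day 4 was that of day 0. As a result the ratio of PRIM1 to POLA2, 2 subunits of the same assembly, went from 0.616 at day 0 to 1.24 at day 18. POLA2 and POLE have 31.0% and 21.1% of their exon bases under opposite-strand records of at most 0.838 and 1.01 FPKM.

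PCNA is the sliding clamp and RFC1 to RFC5 load it. All 6 were at least 2-fold lower at day 18 (29.9% of expressed coding records), also relative to the median record (12.1%). The medians were -1.94 and -1.34. PCNA (chr20:5095600-5107268, minus strand) had the highest mean of all 48 genes, with 198 FPKM on day 0, 121 on day 1, 104 on day 2, 137 on day 4, 109 on day 5, 103 on day 11 and 49.5 on day 18. It stood at 52.1% of its day 0 level at day 11. Its largest step down came between days 11 and 18, by 1.06 on the log2 scale, against 0.72 from day 0 to day 1, a shorter step. Relative to the median record these were 0.78 and 0.61. RFC3 (chr13:34392206-34540694, plus strand) had 34.7, 16.1, 14.9, 19.5, 14.6, 12.8 and 5.56 from day 0 to day 18, the largest decrease of the group (by 2.62). RFC5 (chr12:118454508-118470038, plus strand) had 18.9, 11.8, 11.3, 13.3, 10.0, 9.85 and 6.14, the smallest, with a change of -1.61. RFC1, the large subunit, changed by -1.62, and the ratio of RFC3 to RFC1 went from 1.17 on day 0 to 0.753 on day 1 and 0.582 on day 18. RFC3 has 72.4% of its exon bases under an opposite-strand record of at most 0.978 FPKM.

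RPA coats single-stranded DNA in replication and repair alike, and 2 of its 3 subunits were among the genes that kept most. RPA1 (chr17:1733273-1802848, plus strand) had 40.0 FPKM on day 0, 28.2 on day 1, 26.5 on day 2, 30.7 on day 4, 27.3 on day 5, 23.3 on day 11 and 13.6 on day 18. RPA2 (chr1:28218049-28241236, minus strand) had 34.2, 27.1, 23.0, 28.8, 21.7, 21.3 and 12.5, and RPA3 (chr7:7676577-7758238, minus strand) 22.3, 18.5, 15.8, 17.8, 14.4, 13.1 and 5.91. At day 18 they stood at 34.1%, 36.6% and 26.5% of day 0, and RPA3 parted from the other 2 only after day 11. Both genes that finish the lagging strand were lower too. FEN1 (chr11:61560150-61564707, plus strand), the nuclease that trims the flap, had 60.0 FPKM on day 0, 29.4 on day 1, 27.4 on day 2, 31.9 on day 4, 23.4 on day 5, 21.6 on day 11 and 11.9 on day 18. LIG1 (chr19:48618703-48673560, minus strand), the ligase that seals the nick, had 43.7, 28.0, 26.9, 32.4, 22.0, 22.2 and 12.0. FEN1 thus began higher than LIG1 and met it by day 1, and from then on the ratio of LIG1 to FEN1 stayed between 0.940 and 1.03.

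The nucleotide supply group had the lowest median of the 10 groups, -2.76, or -2.16 relative to the median record. All 4 genes were at least 2-fold lower at day 18 (29.9% of expressed coding records), also relative to the median record (12.1%). TYMS (chr18:657604-673499, plus strand), thymidylate synthase, had 158 FPKM on day 0, 94.9 on day 1, 87.0 on day 2, 102 on day 4, 67.2 on day 5, 69.4 on day 11 and 31.9 on day 18. Of its exon bases 20.4% lie under opposite-strand records, the higher of which, ENOSF1, had at most 11.9 FPKM. TK1 (chr17:76170160-76183285, minus strand), the thymidine kinase of cycling cells, had 37.0, 19.4, 19.1, 20.2, 11.5, 10.5 and 3.73, and its change of -3.28 was the lowest of all 48. The ratio of TK1 to TYMS went from 0.234 to 0.117. RRM1 and RRM2 are the large and the small subunit of ribonucleotide reductase, which makes deoxynucleotides. RRM1 (chr11:4115924-4223759, plus strand) had 82.9 FPKM on day 0, 38.5 on day 1, 33.4 on day 2, 40.5 on day 4, 30.2 on day 5, 35.7 on day 11 and 18.5 on day 18. Both were more than 2-fold lower after 1 day, at 46.5% and 45.1% of day 0, and both were higher at day 11 than at day 5. They parted at the last step, where RRM2 went from 21.8 to 7.04, so that the ratio of RRM2 to RRM1, 0.801 on day 0 and 0.611 on day 11, was 0.381 on day 18.

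Among the chromatin genes, CHAF1A and CHAF1B code for subunits of the CAF-1 complex that deposits histones behind the fork. They were lower by 2.53 and 2.41, and their ratio moved little, between 0.572 and 0.648. UHRF1 (chr19:4909510-4962164, plus strand), which helps copy DNA methylation, had 46.1 FPKM on day 0, 23.5 on day 1, 19.7 on day 2, 23.9 on day 4, 14.8 on day 5, 15.1 on day 11 and 6.23 on day 18. Its decrease of 2.87 was the largest of the group, and 65.2% of its exon bases lie under opposite-strand records of at most 1.35 FPKM. SLBP (chr4:1694527-1714071, minus strand), which binds the stem-loop of histone mRNAs, changed least of all 48 genes, by -1.26. It had 36.9 FPKM on day 0, 26.7 on day 1, 28.8 on day 2, 29.9 on day 4, 23.8 on day 5, 19.6 on day 11 and 15.4 on day 18, the last being 41.6% of day 0. Against CHAF1A its ratio went from 1.10 at day 0 to 2.68 at day 18.

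**Figure D3:**
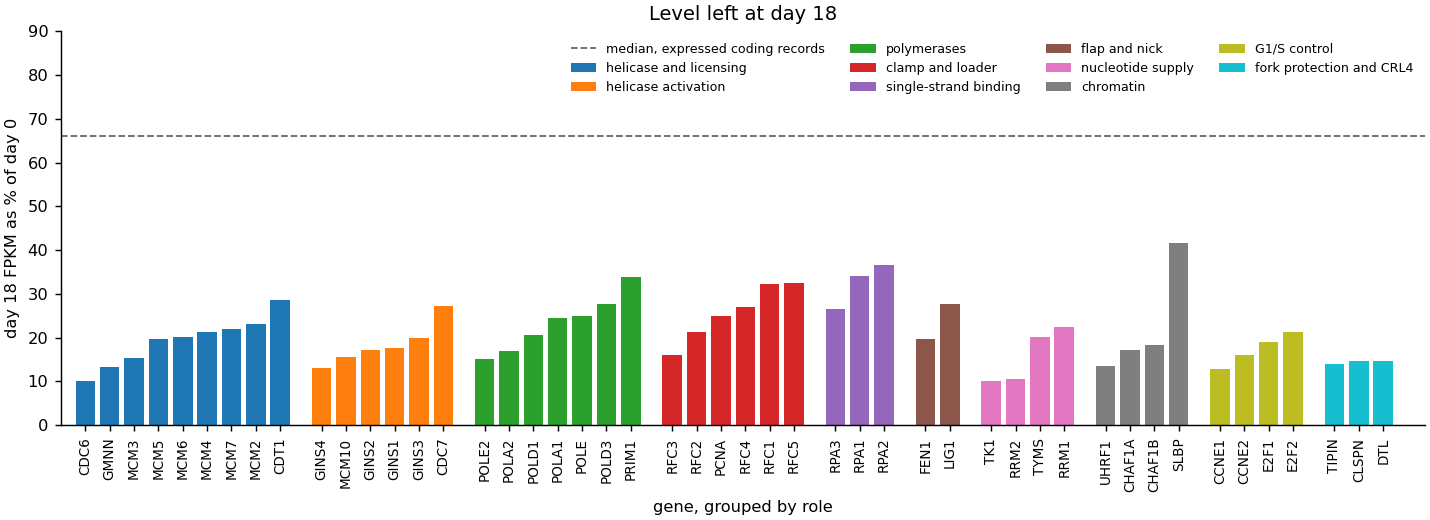
FPKM at day 18 as a percentage of day 0 (y axis) for each of the 48 genes (x axis), colored by role group and sorted within it; the dashed line is the median of expressed coding records (66.0%). Every bar is below the line, from 10.1% (TK1 and CDC6) to 41.6% (SLBP), and SLBP, RPA2 and RPA1 have the highest bars.

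Cyclin E (CCNE1, CCNE2) switches on CDK2 at the G1/S transition, and E2F1 and E2F2 are activating E2F factors. All 4 were at least 2-fold lower at day 18 (29.9% of expressed coding records), also relative to the median record (12.1%). The medians were -2.48 and -1.88. E2F1 (chr20:32263293-32274210, minus strand) had 23.8 FPKM on day 0, 14.1 on day 1, 13.1 on day 2, 18.3 on day 4, 10.3 on day 5, 9.28 on day 11 and 4.50 on day 18. CCNE1 (chr19:30302901-30315218, plus strand) had 8.87, 5.16, 3.55, 4.37, 2.79, 2.53 and 1.13, the largest decrease of the 4, by 2.86. Of its exon bases 61.6% lie under an opposite-strand record of at most 0.122 FPKM. E2F2 (chr1:23832922-23857713, minus strand) had 6.30 FPKM on day 0, 5.22 on day 1, 4.05 on day 2, 5.75 on day 4, 3.51 on day 5, 3.78 on day 11 and 1.34 on day 18, a change of -2.16. This group had the largest return at day 4, with a median of 0.49 above day 2, led by CCNE2 at 0.57, which was the highest of the 48. E2F2 was back at 91.3% of day 0 there. Over 9.65% of the exon bases of CCNE2 lies INTS8 on the opposite strand, a record with a higher mean level, so its value is uncertain.

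The last group holds TIPIN and CLSPN, which steady stalled forks and pass on the checkpoint signal, and DTL, the part of the CRL4 ubiquitin ligase that marks CDT1 for destruction in S phase. DTL (chr1:212208919-212278186, plus strand) had 22.0 FPKM on day 0, 13.7 on day 1, 11.5 on day 2, 15.3 on day 4, 9.67 on day 5, 8.70 on day 11 and 3.23 on day 18. Over 18.3% of its exon bases lies a record on the opposite strand that had 4.05 FPKM on day 0 and 0.469 on day 18, so the value of DTL is uncertain to that extent. TIPIN (chr15:66629008-66649054, minus strand) had 15.1, 7.98, 6.63, 7.61, 5.53, 4.38 and 2.11, and CLSPN (chr1:36201820-36235551, minus strand) 17.4, 9.45, 8.00, 9.68, 6.30, 6.39 and 2.54. At day 18 the 3 genes stood at nearly the same share of day 0, between 14.0% and 14.7%, the tightest of any group. From day 5 to day 11 TIPIN changed by -0.33 and CLSPN by 0.02.

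The steps between sampled days are of unequal length, so their sizes are not rates. Step by step, 47 of 48 genes were lower at day 1 than at day 0 (59.7% of expressed coding records), with a median change of -0.72, or -0.61 relative to the median of expressed coding records. Relative to the housekeeping list 32 were lower (12.2%) and 16 higher, with a median of -0.12. From day 1 to day 2, 45 were lower (38.2%), with a median of -0.19. From day 2 to day 4, the direction turned and 45 were higher (50.0%), with a median of 0.27, the exceptions being CDT1, GINS4 and POLD1. From day 4 to day 5, across replating, all 48 were lower (68.0%), with a median of -0.58. The effects of the new surface, of replating and of 1 more day cannot be told apart at this step. From day 5 to day 11, 35 were lower (71.3%, close to the share among the 48), with a median of -0.12 as deposited. Relative to the median of expressed coding records it was 0.04, so that no direction was kept. From day 11 to day 18, all 48 were lower (81.4%), 33 of them by at least 2-fold (3.72%), with a median of -1.06. Relative to the median record, 6 were lower by 2-fold at this step (1.41%), and the median was -0.78.

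**Figure D4:**
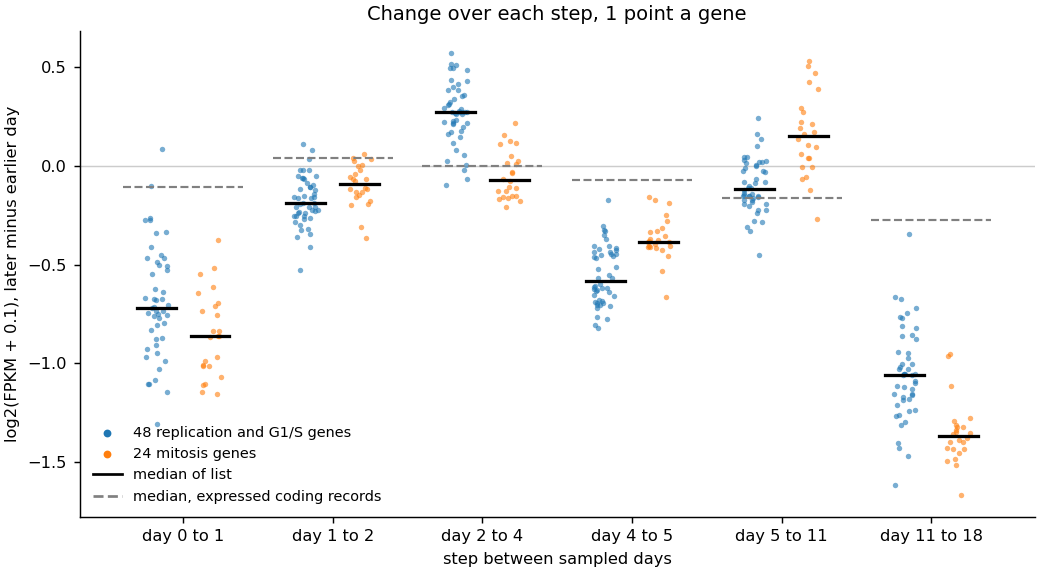
Change in log2(FPKM + 0.1), later minus earlier day (y axis), over each of the 6 steps between sampled days (x axis); blue points are the 48 replication and G1/S genes, orange points 24 mitosis genes, black bars the median of each list and dashed lines the median of expressed coding records. From day 2 to day 4 the blue median is 0.27 and the orange one -0.07, and from day 5 to day 11 they are -0.12 and 0.15, both above their dashed line.

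The 24 genes of a mitosis list (for example UBE2C, which codes for an enzyme of the anaphase ubiquitin pathway and had the highest mean) were set beside the 48, since mitosis follows replication in the cell cycle. All 24 were at least 2-fold lower at day 18 than at day 0 (29.9% of expressed coding records), also relative to the median record (12.1%). Their median was -2.49 as deposited, near the -2.31 of the replication genes. The courses differed on the way. From day 2 to day 4, when 45 of the 48 replication genes were higher (50.0% of expressed coding records), 9 of the 24 mitosis genes were higher and 15 lower, with a median of -0.07. From day 5 to day 11, 18 of the 24 mitosis genes were higher (3389 of 11793 expressed coding records), with a median of 0.15. Of the 48 replication genes 13 were higher, close to the share of expressed coding records, with a median of -0.12. These directions depend on the scale. Relative to the median record 23 of 24 and 33 of 48 were higher at that step (50.0% of expressed coding records), with medians of 0.31 and 0.04, and relative to the housekeeping list 24 of 24 and 46 of 48 (71.6%). Both lists share the scale within each step, so the gaps of 0.34 and 0.27 between their medians stay the same when the days are scaled relative to the median record. Relative to the housekeeping list, the mitosis median from day 2 to day 4 was 0.00, with 12 genes higher and 12 lower. At the last step the mitosis genes were lower by more, with a median of -1.37. No difference between the lists was tested.

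Other genes of replication, 42 taken by name and all with a record, were lower too, by less at the median. Of these, 37 were at least 2-fold lower at day 18 (29.9% of expressed coding records) and none higher by 2-fold, with a median of -1.76. Relative to the median record 25 were lower by 2-fold (12.1%), with a median of -1.16. SSRP1, a subunit of the histone chaperone FACT and the highest of them, went from 172 to 56.2 FPKM. Of 10 D cyclins and CDK inhibitors, which act upstream of E2F, 4 were lower by 2-fold and 2 higher (7.57% of expressed coding records were higher by 2-fold and, as above, 29.9% lower), with a median of -0.75. Relative to the median record the balance turned, with 1 lower (12.1% of expressed coding records) and 2 higher (14.7%), and a median of -0.15. As deposited, the 4 lower genes were the D cyclins CCND1, CCND2 and CCND3 and the inhibitor CDKN2A. The 2 higher ones, CDKN1C and CDKN2D, both code for inhibitors. They had 8.22 and 6.27 FPKM on day 0 and 28.4 and 18.4 on day 18. CDKN1A, which codes for the inhibitor p21 and had the highest mean of that list, had 120 FPKM on day 0, 153 on day 5 and 68.0 on day 18.

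Markers of other cell states moved over the same days. Of 10 neuronal markers 8 were higher by 2-fold at day 18 (7.57% of expressed coding records), with a median of 2.03. Relative to the median record 8 were higher as well (14.7%), with a median of 2.62. TUBB3 and GAP43 were not past 2-fold as deposited, at 0.39 and -0.15. The summed FPKM of the 10 was 742 on day 0, 807 on day 4, 1053 on day 5 and 1843 on day 18, and STMN2 went from 32.3 to 727. The 8 neural progenitor markers summed to 3702 at day 0 and 1835 at day 18, with a median change of -0.77, or -0.17 relative to the median record. VIM alone made up 2948 and 1493 of those sums. Of the 8 markers 2 were lower by 2-fold (29.9% of expressed coding records) and 2 higher (7.57%), the latter being PAX6 and SOX9, at 1.25 and 2.24. Relative to the median record 1 was lower by 2-fold (12.1%) and 2 higher (14.7%). The sum of 6 mesenchymal markers was 658 at day 0 and 56.7 at day 18, with a median of -3.04, and TAGLN went from 367 to 19.4. COL1A1 is listed at 0 on all 7 days. The astrocyte marker GFAP and the oligodendrocyte marker OLIG2 had at most 0.186 and 0.130 FPKM on any day. Their part in the course of the replication genes was not tested.

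**Figure D5:**
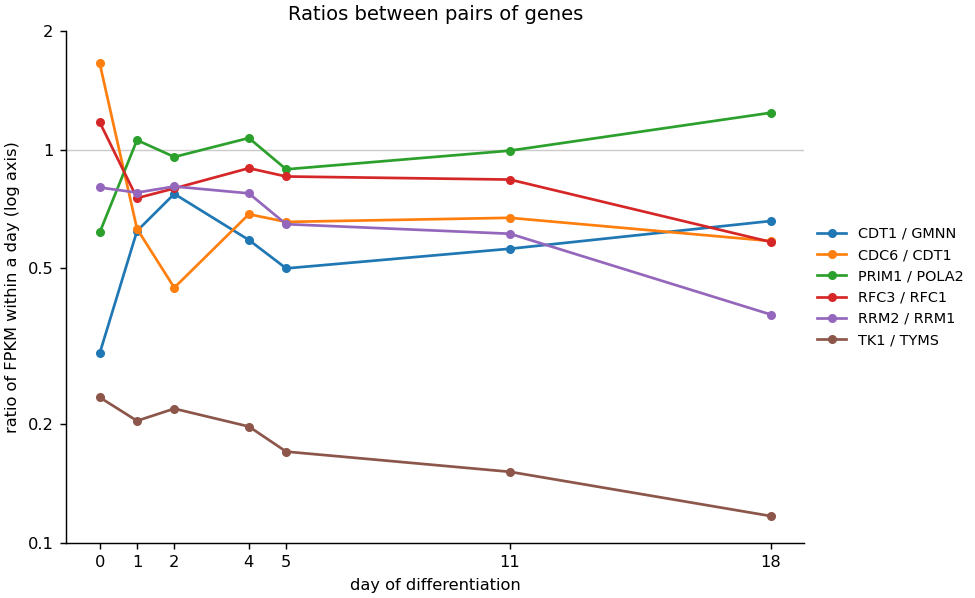
Ratio of FPKM between pairs of genes within a day (y axis, log scale) by day of differentiation (x axis), 1 line per pair. CDT1 / GMNN goes from 0.303 to 0.658 and PRIM1 / POLA2 from 0.616 to 1.24, while CDC6 / CDT1, RFC3 / RFC1, RRM2 / RRM1 and TK1 / TYMS are lower at day 18 than at day 0.

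Few genes departed from the common course. As a description over the 7 days, which share their scaling, Pearson's r between each gene and the median course of the other 47 was lowest for CDT1 (0.894), RRM1 (0.935) and PRIM1 (0.949). CDT1 departed by its high level up to day 4, RRM1 by its early drop and its higher level at day 11, and PRIM1 by its level at day 4. Exons of 17 of the 48 genes lie by more than 5% under an opposite-strand record. These are MCM2, MCM5, MCM7, CDC6, CDC7, GMNN, GINS3, GINS4, RFC3, POLA2, POLE, POLD1, TYMS, UHRF1, CCNE1, CCNE2 and DTL. With them left out, all 31 others were at least 2-fold lower at day 18.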

How the data were processed

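Polyadenylated RNA of 20 samples was sequenced, 3 cultures a day and 2 at day 5, and titles gave the groups. Per the submitters' processing notes, reads were aligned with TopHat2 to hg19. Per the study's methods, transcripts were assembled with Cufflinks and quantified with Cuffdiff2 at default options, with versions not given in the sources used here. The FPKM values deposited by the authors hold 1 value per record and day, pooled over its cultures, so no replicate was available and depth is unknown. No column of an unmapped sample was present (0). The authors' comparison table also holds log2 fold changes, test statistics, p-values and q-values for adjacent days, which were not used. Its exon coordinates, names and status words were used, and all 48 genes had the status OK in all 6 steps. Whether fragments were counted by strand is not stated, so records overlapping on opposite strands are uncertain.

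From the FPKM values, differences in log2(FPKM + 0.1) were computed with Python 3.11.15, pandas 2.3.3 and numpy 2.4.6, and tested on simulated data. No statistical test was run. The background is the 11793 coding records whose FPKM averaged at least 1. Other symbols of listed genes were matched through RefSeq synonyms. RefSeq promoters (GRCh38.p14) were searched for exact words, and no coordinate was moved between builds. Named in full are, in each role group, the gene with the highest mean FPKM and those with the most and the least negative change from day 0 to day 18. Pairs for ratios, and further genes named for a single value, were chosen after their values were seen. The 48 genes and all lists were chosen with earlier results of these data known. Alternatives were 3 other scalings, pseudocounts of 1 and 0.01, fold limits of 1.5 and 4, filters on mean FPKM and other ways to take records. Those added after the data were seen were scaling to the housekeeping list, leaving out genes with opposite-strand overlap, and replacing day 18 or day 5.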

Additional observations from a re-analysis of the deposited data

How the results depend on the processing

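No paired analysis was possible because the deposited values hold 1 value per day, and for the same reason no replicate could be left out. The 3 planned scalings were relative to the median of expressed coding records, rescaling to an equal sum, and dividing by the 75th percentile, and values are given in that order, followed where present by the housekeeping list, which was added after the data were seen. The median change from day 0 to day 18 (-2.31) became -1.71, -1.60, -1.62 and -1.13, and that from day 5 to day 11 (-0.12) turned to 0.0444, 0.0159, 0.0485 and 0.20. Relative to the housekeeping list, the median from day 0 to day 1 became -0.12 and the count of genes 2-fold lower at day 18 became 29. The count at day 1 (6) became 2, 1, 1 and 0, and 32 and 0 at fold limits of 1.5 and 4. By the plain ratio, 7, 16, 5, 33, 34 and 48 genes were below 50% of day 0 at days 1, 2, 4, 5, 11 and 18. With the scalings these became 3, 1 and 1 at day 1, 3, 2 and 2 at day 4, and 22, 19 and 14 at day 11, while dividing by the 75th percentile gave 10 at day 2. Rescaling to an equal sum and dividing by the 75th percentile gave 18 and 15 at day 5. Without the genes that have opposite-strand overlap, 31 of 31 were 2-fold lower at day 18 and 3 at day 1. On 1 strand only, 26.9% of the promoters held an E2F word (50.0% on both). No change of a single gene from day 0 to day 18 reversed under any scaling, pseudocount or record choice tried. With day 11 in place of day 18, 34 genes were lower by 2-fold. Depth cannot be weighed, since no counts were at hand.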

Other observations

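A list held 11 genes of the E2F factors, their partners and the retinoblastoma family (pocket proteins). Of these, 7 were at least 2-fold lower at day 18 than at day 0 (29.9% of expressed coding records). None was higher by 2-fold (7.57%), and the median log2 change was -1.26. Relative to the median of expressed coding records, 5 were lower by 2-fold (12.1%) and none higher (14.7%), with a median of -0.66. E2F7 and E2F8, which code for repressive E2F factors, had 17.9 and 3.51 FPKM at day 0 and 2.43 and 0.554 at day 18. E2F4, a factor of resting cells, had 33.0 and 14.8. The pocket protein genes were apart from each other. RBL1 had 7.65 FPKM at day 0 and 2.43 at day 18, RB1 19.4 and 12.8, and RBL2 8.37 and 8.39, which relative to the median record is a difference of 0.60 on the log2 scale. TFDP2, a partner of E2F factors, had 24.7 FPKM at day 0, 40.3 at day 11 and 20.1 at day 18, whereas TFDP1 had 50.1, 19.2 and 14.7. The genes of this list were picked out after their values were seen, and no difference was tested.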
